A study of Mus musculus with 6 samples.

Results

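The 53 genes described here encode secreted WNT ligands, their receptors and co-receptors, secreted antagonists, R-spondins with their LGR receptors, and intracellular mediators and feedback targets of the pathway. They were chosen by symbol, and all 53 were found among the 55536 genes of the count matrix through their Ensembl identifiers. WNT proteins are lipid-modified signals that bind Frizzled receptors. With LRP5 or LRP6 they stop the breakdown of β-catenin, which then acts with TCF and LEF factors on target genes, and through ROR and RYK receptors they act without it. In the developing limb skeleton, WNT signals from the perichondrium and joint regions are known to steer the choice between cartilage and bone and the pace of chondrocyte maturation.

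RNA was measured in perichondrium, the fibrous sheath of cartilage, of mouse limb bones at postnatal day 4. The knockout group (titles "mut") holds 3 libraries of the genotype Fbn1Scx-/-, in which Fbn1, the gene for the microfibril protein fibrillin-1, is deleted with a Cre driven by the promoter of Scx, a tendon and ligament factor, and cells that never used that promoter keep the gene. The wild-type group (WT) holds 3 libraries, and the labels do not say whether those mice carried the Cre or a floxed allele. Libraries are called by the start of their titles, mut-596, mut-597, mut-795 and WT-596, WT-597, WT-795, and values are given in that order. The title of mut-596 goes on with ScxCRE and those of mut-597 and mut-795 with Koscx. Each title also carries a second number that differs between the libraries. An index in the headers of the count columns is lower for every wild-type library than for every knockout library. The meaning of the shared number, the second number and the index is not stated. Nor is it said that each library is a separate animal, so a p-value here reflects library-to-library spread, which may be technical.

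Total counts lay between 7209217 and 9720268 in the knockout and between 8019248 and 10316017 in the wild-type libraries. Fbn1 was at 10.04, 6.75 and 7.10 CPM (counts scaled to library size with TMM factors) in the knockout and at 119, 84.7 and 63.5 CPM in the WT libraries, and it was the single gene of the series past the edgeR threshold. All 10 listed markers of fibrous sheath were above 1 CPM in every library. So were all 10 markers of skeletal muscle, with a summed level of 2104 to 4136 CPM in knockout and 2823 to 9322 CPM in wild type, the highest in WT-597, and with fold changes below 0 for all 10 (median -0.80). Osteoblast markers (7 of 7, all below 0) summed to 2040 to 3133 CPM in knockout and 2656 to 3155 CPM in wild type. Chondrocyte markers (7 of 8) summed to 2928 to 3000 CPM in knockout and 2027 to 3303 CPM in wild type. Most of that sum was Col11a1, at 2594 to 2714 CPM in knockout and 1707 to 2853 CPM in wild type. Of the 8 chondrocyte markers 2, Col2a1 and Acan, were below 0 (median 0.32). Tendon markers summed to 560.3 to 679 CPM in knockout and 681 to 919 CPM in wild type, with 5 of 6 below 0 (median -0.29). Schwann cell markers summed to 215 to 325 CPM in knockout and 221 to 231 CPM in wild type, with 1 of 6 below 0 (median 0.54). The part of these cell types in the WNT values was not tested. Of 6 epidermal markers, 2 were at 0 in every library: Krt14 and Krt15. Krt5 (3.19 to 9.02 CPM) and Krt10 (3.565 to 5.099 CPM) were above 1 CPM in every library. The libraries mut-596 and mut-597 held 6221 and 4024 counts of Xist and no other library more than 4, so sex and genotype cannot be fully told apart. In bulk tissue fewer cells of a type and less RNA per cell cannot be told apart either.

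No WNT gene differed between knockout and wild type at an adjusted p under 0.05. Of the 53 genes, 48 passed the filter on low counts and were tested, and 0 of them were called by edgeR's quasi-likelihood test, where 0.00636% of all 15712 genes tested were called. DESeq2 also called 0 of the 48, with 0.0255% of all genes called, and gave 6 of the 48 an unadjusted p under 0.05, against 9.83% of all genes. At an unadjusted p under 0.05, edgeR gave 6 of the 48 (12.5%), against 10.5% of all genes. Those higher in knockout were Dkk1 and Dkk2 (4.17%, against 3.37% of all genes), and those lower were Wnt4, Wnt9a, Wnt11 and Nkd1 (8.33%, against 7.12%). The shares are close to those of all genes. The 48 log2 fold changes of knockout over wild type ran from -0.93 to 0.73, and none reached 1 in size. Of them 27 lay above 0 and 21 below, with a median of 0.05 beside 0.01 for all genes tested. The 95% intervals of single genes reached down to -1.79 and up to 1.43, so a change of 2-fold is not excluded for such members.

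**Figure D1:**
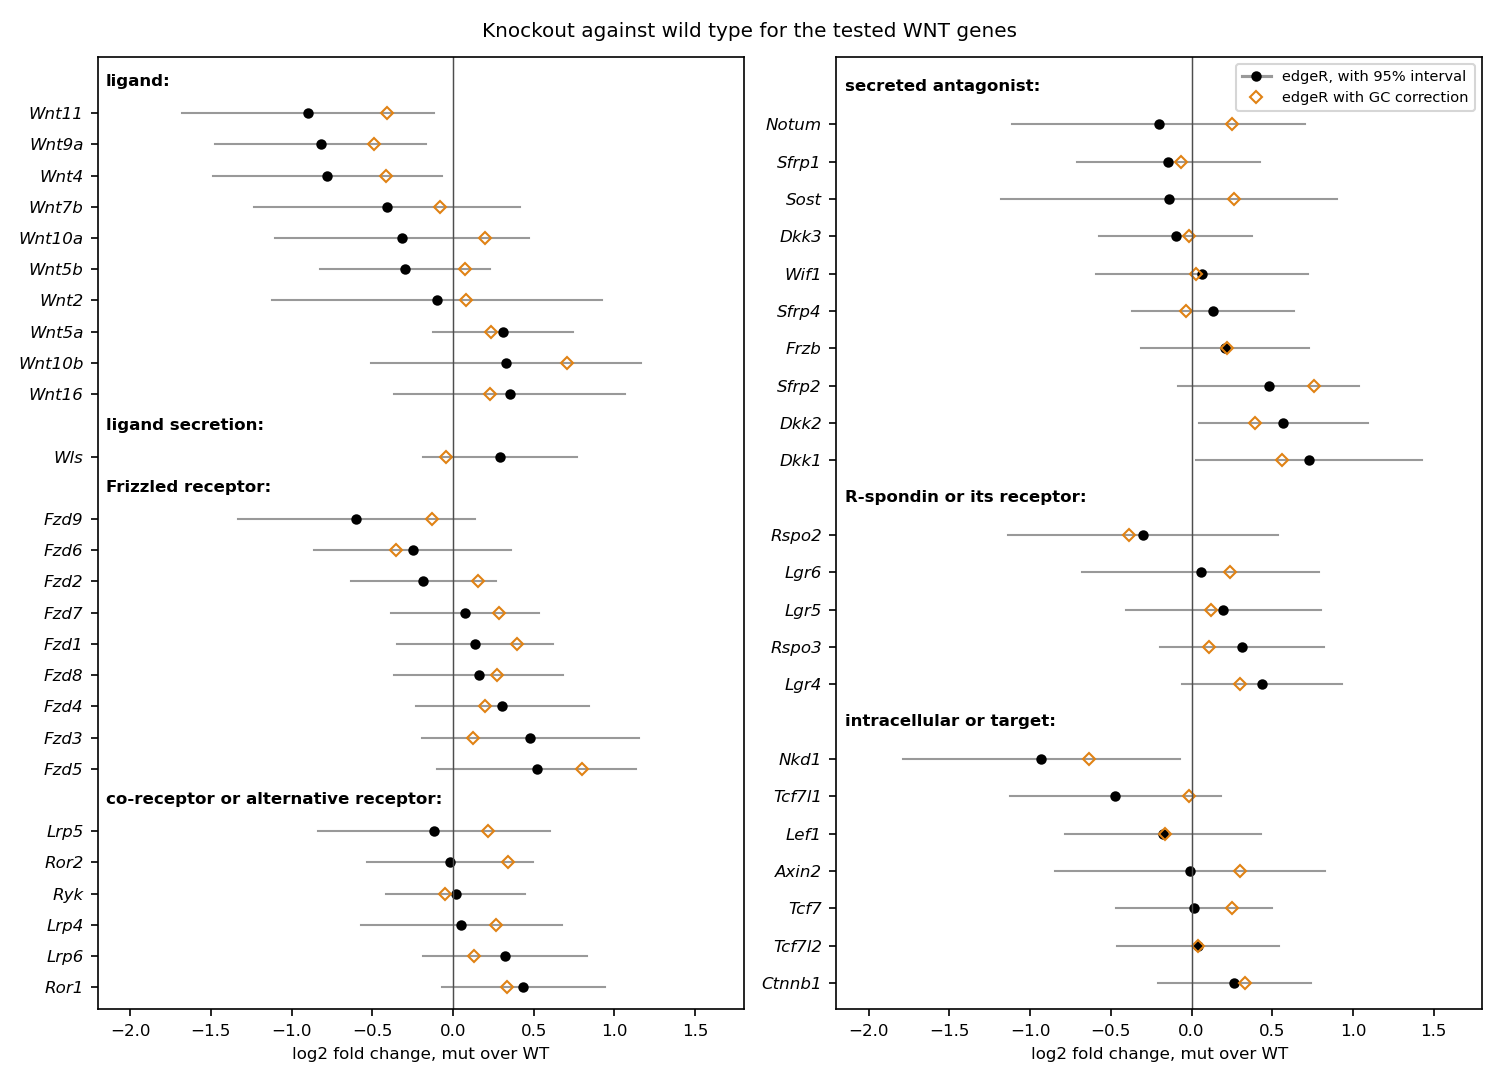
Log2 fold change of knockout over wild type (x axis) for the 48 tested WNT genes, grouped by role. Filled points are edgeR estimates with 95% intervals as bars, and open diamonds are estimates with the GC correction. The intervals of 42 genes include 0, and the filled points run from -0.93 (Nkd1) to 0.73 (Dkk1).

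The roles differed widely in level. Levels of different genes are given as RPKM (CPM per kilobase of merged exons). Summed over its members, the antagonist group was the most abundant, at 138 ± 13.7 RPKM in knockout and 124 ± 29.6 RPKM in wild type (SD, n = 3 each). The intracellular and target genes summed to 90.5 ± 4.21 RPKM in knockout and 80.0 ± 10.1 RPKM in wild type, most of it Ctnnb1. Frizzled receptors summed to 40.1 ± 1.83 RPKM in knockout and 39.5 ± 4.32 RPKM in wild type. The ligands together reached 24.1 ± 0.674 RPKM in knockout and 26.4 ± 1.16 RPKM in wild type. Each library held several times more antagonist than ligand transcript on this scale. The 5 genes under the filter were Wnt2b, Wnt6, Fzd10, Sfrp5 and Rspo1, each with at most 15 counts in any library. For Rspo1 the counts were 2, 1 and 0 in knockout and 1, 2 and 2 in wild type, where 3 counts in a library correspond to 0.283 to 0.45 CPM.

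**Figure D2:**
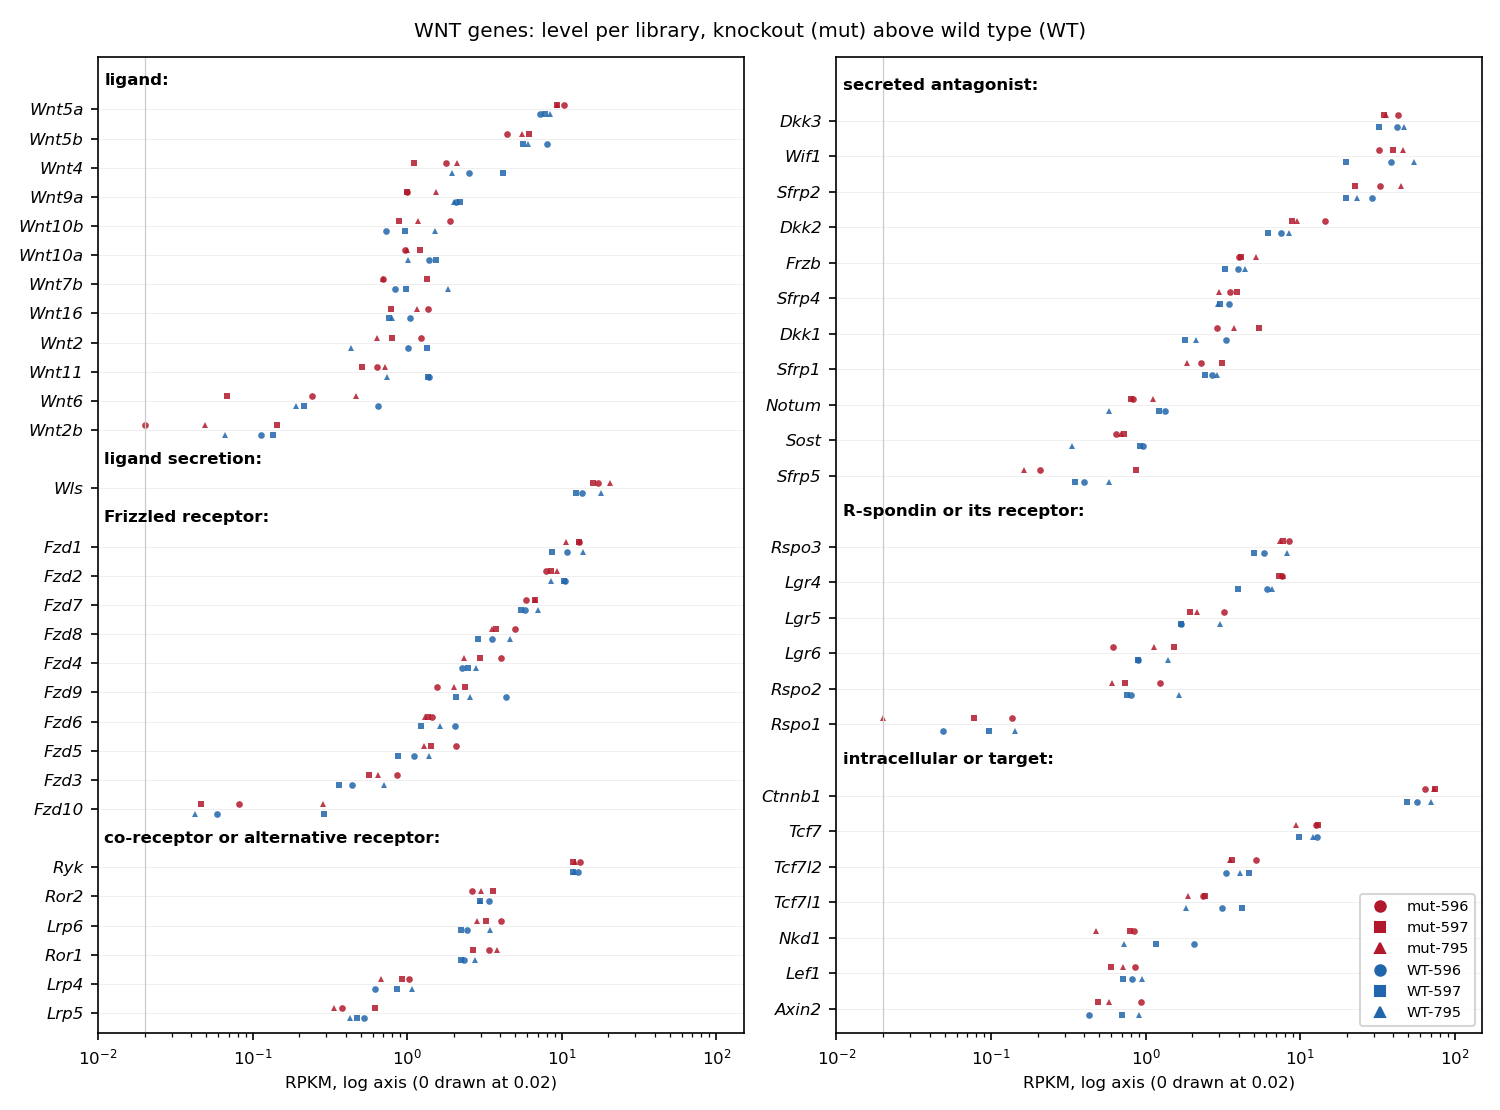
RPKM per library (x axis, log scale) for all 53 WNT genes by role, with knockout points above wild-type points and a marker shape for each number in the titles. The levels run from Ctnnb1, Wif1, Dkk3 and Sfrp2 at the top to Rspo1 and Wnt2b near 0, while the points of both groups of a gene mostly overlap.

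Among the ligands, Wnt5a, which signals mainly without β-catenin and is needed for limb outgrowth, was the most abundant. It was at 81.3, 73.2 and 72.7 CPM in Fbn1Scx-/- libraries, against 56.2, 61.0 and 66.1 CPM in WT. All knockout libraries were above all wild-type libraries, by a narrow gap. Its log2 fold change was 0.31 (SE 0.20, 95% interval -0.12 to 0.74), and 0.23 with the GC correction. The adjusted p by edgeR was 0.522 without that correction. Wnt5b, its close relative, known from prehypertrophic cartilage and perichondrium, came next at 5.36 ± 0.874 RPKM in knockout and 6.58 ± 1.30 RPKM in wild type (SD, n = 3 each). Its log2 fold change was -0.30 (SE 0.25), with overlapping groups.

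Wnt5a made up 42.2%, 40.0% and 38.2% of the summed RPKM of the 12 ligands in Fbn1Scx-/- libraries. In WT the share was 26.6%, 28.8% and 33.8%. The lowest knockout share was above the highest wild-type share, and WT-795 was the wild-type library closest to the knockouts. This is a description without a test. Wnt5a is poorer in G and C (47.6%) than the median of the tested ligands (57.2%), and the part of base composition in this share was not tested.

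**Figure D3:**
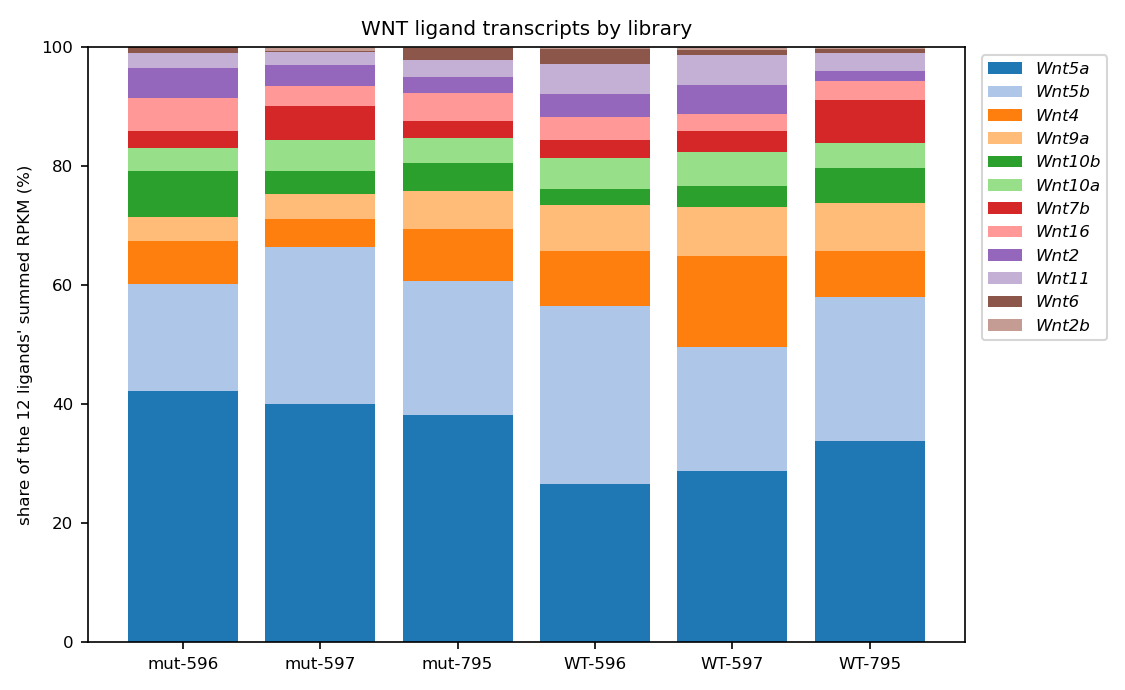
Share of each WNT ligand in the summed RPKM of the 12 ligands (y axis, percent), in a bar for each library with knockout on the left. Wnt5a is the largest segment in each knockout library, at 38.2% to 42.2%, and takes 26.6% to 33.8% in wild type, where Wnt5b exceeds it in WT-596 alone.

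The ligands with the lowest fold changes were Wnt9a, Wnt11 and Wnt4, the last of which is named after its values were seen. Wnt9a, a ligand of forming synovial joints, was at 3.30, 3.30 and 5.14 CPM in Fbn1Scx-/- libraries, against 6.93, 7.36 and 6.65 CPM in WT. Its groups did not overlap, and the wild-type libraries lay close together. On the log2 scale the difference was -0.82 (SE 0.31, 95% interval -1.48 to -0.16), with an edgeR unadjusted p of 0.0177 and an adjusted p of 0.459. It was -0.43 without mut-596 and mut-597, the libraries that hold Xist, which leaves only mut-795 in the knockout group. Wnt11, a ligand of cell movement and kidney branching, was at 2.64, 2.10 and 2.98 CPM in Fbn1Scx-/- libraries, against 5.70, 5.66 and 3.05 CPM in WT. WT-795 stood beside the knockouts, so the groups were separated by little. The log2 fold change was -0.90 (SE 0.37), with the same adjusted p of 0.459, and it rests on 14 to 29 counts per knockout library and 22 to 60 per wild-type library.

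Wnt4, a ligand of joints and kidney tubules, was at 7.53, 4.65 and 8.85 CPM in Fbn1Scx-/- libraries, against 10.5, 17.5 and 8.18 CPM in WT. The groups overlapped at mut-795 and WT-795, and WT-597 was the highest. Its log2 fold change was -0.78 (SE 0.33) and the adjusted p by edgeR was 0.459. WT-597 was also the library with the highest summed level of muscle markers, 9322 CPM, and the part of muscle in this difference was not tested. Without WT-597 the unadjusted edgeR p of Wnt4 was no longer under 0.05, nor was it without mut-597. Its log2 fold change was -0.99 without WT-795 (edgeR adjusted p = 0.0541). Of all 10 tested ligands, 7 lay below 0 and 3 above, with a median of -0.31.

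Promoters of Wnt9a and Wnt11, with low fold changes, and of Dkk2, with a high one, are shown for their base composition. The Wnt9a and Wnt11 promoters were richer in G and C (83.3% and 71.3%) than that of Dkk2 (57.7%). The transcripts of Wnt9a and Wnt11 (56.3% and 59.8%) were also richer than those of Dkk2 (45.7%), but in the other order. The promoter windows run from 250 bases before to 50 bases after the RefSeq start (build GRCm38.p6). Capitals mark CG dinucleotides in the Wnt9a promoter (chr11:59306680-59306979, plus strand) and in the Dkk2 promoter (chr3:132085042-132085341, plus strand). In the Wnt11 promoter shown (chr7:98834862-98835161, plus strand) capitals mark ATCAAAG, the reverse complement of the TCF and LEF recognition motif CTTTGAT.
Wnt9a: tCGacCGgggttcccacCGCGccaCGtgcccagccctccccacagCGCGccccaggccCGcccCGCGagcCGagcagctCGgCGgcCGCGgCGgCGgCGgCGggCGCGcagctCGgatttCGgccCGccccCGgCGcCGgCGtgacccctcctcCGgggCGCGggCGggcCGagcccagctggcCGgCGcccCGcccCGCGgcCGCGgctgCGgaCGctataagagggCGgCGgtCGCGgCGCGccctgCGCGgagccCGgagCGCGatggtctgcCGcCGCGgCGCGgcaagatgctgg
Wnt11: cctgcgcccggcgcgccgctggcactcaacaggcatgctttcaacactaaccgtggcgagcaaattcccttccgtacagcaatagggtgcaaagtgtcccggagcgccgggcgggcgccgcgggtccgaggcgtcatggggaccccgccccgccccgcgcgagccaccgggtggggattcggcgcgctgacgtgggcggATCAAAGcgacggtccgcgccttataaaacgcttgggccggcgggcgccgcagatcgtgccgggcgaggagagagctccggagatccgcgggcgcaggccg
Dkk2: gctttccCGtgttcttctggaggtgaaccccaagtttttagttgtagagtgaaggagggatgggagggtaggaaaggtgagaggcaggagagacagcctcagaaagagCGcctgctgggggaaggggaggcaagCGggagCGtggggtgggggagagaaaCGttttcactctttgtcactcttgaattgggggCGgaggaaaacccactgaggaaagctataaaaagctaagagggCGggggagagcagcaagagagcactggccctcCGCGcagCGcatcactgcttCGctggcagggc
The windows held 58 CG dinucleotides in Wnt9a, 45 in Wnt11 and 11 in Dkk2, beside a median of 7 over all 32851 promoters of the table and 24 over those of the members. The promoter of Wnt4 held 51, that of Dkk1 held 9 and that of Nkd1 held 6. In G and C these were at 84.3%, 60.7% and 58.3%, so Nkd1, with the lowest fold change, was close to Dkk2. The promoter of Fzd5, at a log2 fold change of 0.52, was at 75.7%, so the 3 promoters shown do not stand for all members. CTTTGAT, searched on both strands, was found in 2 of the 45 promoters listed for 36 of the members and in 3.73% of all promoters. The matches were in this Wnt11 window, where it starts at position -51 from the start site, and in 1 of the 3 windows of Wnt5b. The other window listed for Wnt11 (chr7:98838595-98838894, plus strand) held 23 CG dinucleotides and no match. A match is a description of letters and not a measured site.

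No gene of ligand secretion or reception passed the edgeR threshold. Wls, the carrier that brings WNT proteins to the cell surface, was at 150, 141 and 180 CPM in Fbn1Scx-/- libraries, against 119, 110 and 157 CPM in WT. WT-795 lay inside the knockout range. On the log2 scale the difference was 0.29 (SE 0.22, edgeR adjusted p = 0.574), and it was -0.04 with the GC correction, so its sign is not settled.

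Of 10 Frizzled genes, 9 were tested, with 6 above 0 and 3 below. Fzd1, Fzd2, Fzd7 and Fzd8 together made up 75.9% to 79.4% of Frizzled RPKM in knockout and 74.9% to 79.0% in wild type. Fzd1 was at 12.2 ± 1.26 RPKM in knockout and 11.1 ± 2.51 RPKM in wild type, and Fzd2 at 8.58 ± 0.702 RPKM in knockout and 9.74 ± 1.10 RPKM in wild type (SD, n = 3 each). Their log2 fold changes were 0.14 (SE 0.23) and -0.18 (SE 0.21), and Fzd2 was at 0.16 with the GC correction. The widest Frizzled values were 0.52 for Fzd5 and -0.60 for Fzd9, both named after their values were seen.

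The co-receptors and alternative receptors ran from -0.12 for Lrp5 (0.22 with the GC correction) to 0.43 for Ror1. Ryk, a kinase-like receptor, was the most abundant of them. It was at 59.4, 53.4 and 55.2 CPM in Fbn1Scx-/- libraries, against 58.0, 53.7 and 54.5 CPM in WT. The groups covered nearly the same range. Ryk was at a log2 fold change of 0.02 (95% interval -0.41 to 0.45). Ror2, a receptor of Wnt5a, was at -0.02 (SE 0.24, interval -0.53 to 0.49). Both signs flip with the GC correction.

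R-spondins bind LGR receptors and shield Frizzled and LRP receptors from degradation. Lgr4 was at 44.8, 42.7 and 45.4 CPM in Fbn1Scx-/- libraries, against 35.9, 23.4 and 38.9 CPM in WT. The knockout libraries lay close together and above all wild-type libraries. The log2 fold change was 0.44 (SE 0.23) and the adjusted p by edgeR was 0.482. It was 0.23 without WT-597 and 0.30 with the GC correction. Rspo3, the most abundant R-spondin, was at 26.1, 24.0 and 22.8 CPM in Fbn1Scx-/- libraries, against 18.1, 15.6 and 25.2 CPM in WT. WT-795 again fell among the knockouts. Its log2 fold change was 0.32 (SE 0.24, adjusted p = 0.569 by edgeR), and it was 0.11 with the GC correction.

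The secreted antagonists split into families that bind WNT proteins (the SFRPs with Frzb, and Wif1) and families that bind LRP5 and LRP6 (Dkk1, Dkk2 and Sost), while Dkk3 is a divergent Dickkopf whose part in WNT signalling is less settled. Dkk3 was at 144, 116 and 121 CPM in Fbn1Scx-/- libraries, against 142, 108 and 158 CPM in WT. Wif1 was at 77.9, 96.7 and 113 CPM in Fbn1Scx-/- libraries, against 94.5, 47.7 and 133 CPM in WT. The wild-type values enclosed those of the knockouts for both genes. Their log2 fold changes were -0.10 (SE 0.22) and 0.07 (SE 0.31), and the sign of Wif1 turned without WT-597 (-0.26), that of Dkk3 without WT-795 (0.00083).

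Dkk1 and Dkk2 were the members with the highest fold changes, Dkk1 being named after its values were seen. Dkk1 was at 6.999, 13.2 and 9.05 CPM in Fbn1Scx-/- libraries, against 8.07, 4.34 and 5.13 CPM in WT. The groups overlapped at mut-596 and WT-596. On the log2 scale the difference was 0.73 (SE 0.33) and the adjusted p by edgeR was 0.466. Dkk2 was at 53.5, 32.7 and 35.1 CPM in Fbn1Scx-/- libraries, against 27.7, 22.8 and 31.3 CPM in WT. Its groups did not overlap, although mut-597 and WT-795 lay close together. The log2 fold change was 0.57 (SE 0.24, edgeR adjusted p = 0.460), and it was 0.29 without mut-596.

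Sfrp2, the most abundant SFRP, was at 70.2, 49.0 and 96.7 CPM in Fbn1Scx-/- libraries, against 62.5, 42.5 and 50.3 CPM in WT. mut-795 was high and the other knockouts fell in or near the wild-type range. Its log2 fold change was 0.48 (SE 0.26, edgeR adjusted p = 0.484), and 0.20 without mut-795. An exon of Gm26771 on the opposite strand overlaps Sfrp2 by 224 bases and carried 2402 counts over all libraries beside 3270 for Sfrp2, so without strand the Sfrp2 level is uncertain. Frzb was at 4.46 ± 0.657 RPKM in knockout and 3.88 ± 0.577 RPKM in wild type (SD, n = 3 each), at a log2 fold change of 0.21 (SE 0.24). Sost, the antagonist made by osteocytes, had only 10, 10 and 14 counts in Fbn1Scx-/- libraries, and 21, 20 and 5 counts in WT, at -0.14 (SE 0.49).

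β-Catenin and the TCF and LEF factors carry the signal to the genome, and Axin2, Nkd1 and Notum are feedback genes that the pathway itself switches on and that in turn restrain it. Axin2, the most used reporter of β-catenin activity, was at 5.15, 2.70 and 3.19 CPM in Fbn1Scx-/- libraries, against 2.38, 3.87 and 4.99 CPM in WT. The groups covered the same range. On the log2 scale the difference was -0.01 (SE 0.39), and its 95% interval of -0.85 to 0.83 rests on 18 to 41 counts per library. The sign turned with the GC correction (0.30). Lef1 was at -0.18 (SE 0.28) and Tcf7 at 0.01 (SE 0.23), Tcf7 averaging 30.7 ± 5.40 CPM in Fbn1Scx-/- and 30.4 ± 4.15 CPM in WT (SD, n = 3 each). Notum, an enzyme that strips the lipid from WNT proteins, was at -0.20 (SE 0.42) from 10 to 34 counts per library, and at 0.25 with the GC correction. On the opposite strand, exons of Notumos (34 counts over all libraries) and Myadml2os (45) overlap Notum (129), by up to 612 and 109 bases. An exon of Gm43352 (138 counts) likewise overlaps Lef1 (354) by 1208 bases, so without strand the levels of Notum and Lef1 are uncertain.

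Nkd1, which binds Dishevelled, had the lowest fold change of all members. It was at 3.83, 3.60 and 2.16 CPM in Fbn1Scx-/- libraries, against 9.31, 5.28 and 3.33 CPM in WT. WT-795 lay inside the knockout range and WT-596 was far above it. The log2 fold change was -0.93 (SE 0.40, 95% interval -1.79 to -0.07) and the adjusted p by edgeR was 0.461. Nkd1 thus differed from the other feedback genes in its value, but this difference was not tested. Without WT-596 the value of Nkd1 was -0.46 (SE 0.42). Ctnnb1 was at 332, 385 and 379 CPM in Fbn1Scx-/- libraries, against 295, 255 and 363 CPM in WT, with WT-795 inside the knockout range. Its log2 fold change was 0.27 (SE 0.22, edgeR adjusted p = 0.600). Ulk4, on the opposite strand, overlaps its exons by up to 475 bases and carried 15416 counts beside 17196, so reads of these genes cannot be told apart there.

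**Figure D4:**
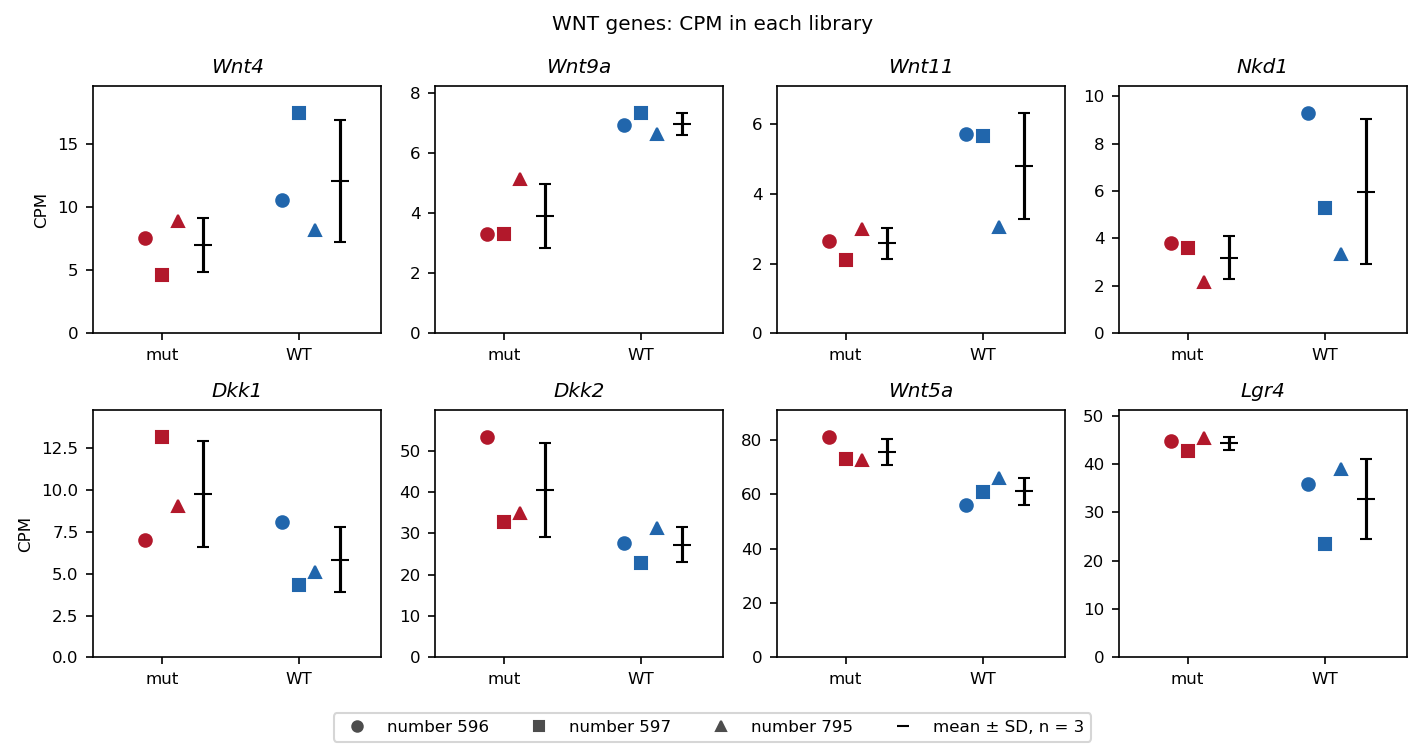
CPM in each library (y axis from 0) for the 6 WNT genes with an unadjusted edgeR p under 0.05 and for Wnt5a and Lgr4, with knockout left of wild type, marker shapes for the numbers in the titles, and mean ± SD (n = 3) in black. The groups of Wnt9a, Wnt11, Dkk2, Wnt5a and Lgr4 do not overlap, and WT-795 is the wild-type point nearest to the knockouts in each of these 5 panels.

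Groups did not overlap for 5 of the 48 members (10.4%), against 11.9% of all genes tested. Dkk2, Lgr4 and Wnt5a were higher in every knockout library (6.25%, against 5.66% of all genes), and Wnt9a and Wnt11 lower (4.17%, against 6.22%). An exact permutation test of 3 against 3 libraries cannot give less than p = 0.1 for any of them. The authors' deposited table holds 1643 genes, beside 15712 tested here, and lists 5 of the 48 members. These are Wnt4 at -0.78, Wnt9a at -0.83, Wnt11 at -0.91, Dkk2 at 0.56 and Nkd1 at -0.94. In the DESeq2 fit made here these 5 had unadjusted p between 0.0220 and 0.0389 and adjusted p between 0.412 and 0.459. Of all genes in that fit, 9.83% had an unadjusted p under 0.05.

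WT-795 decided how many genes of the series passed. Without it 1517 of 16702 genes (9.08%) were called by edgeR, and still 0 of the 48 members. The members nearest to the threshold in that fit were Nkd1 at a log2 fold change of -1.23 (edgeR adjusted p = 0.0517), Wnt11 at -1.14 (0.0541) and Wnt4 at -0.99 (0.0541). At an unadjusted p under 0.05 there were 11 members (22.9%), against 29.5% of all genes in the same fit. Higher in knockout were Dkk2, Fzd3, Fzd5, Lgr4, Lrp6 and Rspo3 (12.5%, against 13.8% of all genes), and lower were Nkd1, Tcf7l1, Wnt11, Wnt4 and Wnt9a (10.4%, against 15.7%). The members outside the naming rule among them are named after their values were seen. The count was 4 without mut-596 (4.70% of all genes), 3 without mut-597 (8.90%) and 4 without mut-795 (9.32%). It was 3 without WT-596 (4.66%), 3 without WT-597 (4.54%) and 2 of 49 without both mutant libraries that hold Xist (2.56%).

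The fold changes of the members followed the GC content of their transcripts, as did those of all genes. Across the 48 members Spearman's rho of log2 fold change on GC content was -0.65, and across 15701 genes it was -0.63. Genes are not independent replicates, and all of these values share the same 6 libraries. In the third of members lowest in GC (40.5% to 47.9%), 14 of 16 lay above 0, with a median of 0.31, and 78.0% of all genes in that GC range were above 0. In the third highest in GC (55.7% to 64.3%), 2 of 16 lay above 0, with a median of -0.25, and 13.4% of all genes in that range were above 0. Ligands had a median GC content of 57.2%, R-spondins and their receptors 47.2% and antagonists 50.1%, so the roles differ in composition.

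With a correction that removed each library's smooth trend on GC content, rho across the members was -0.02. The median log2 fold change of the ligands was then 0.08, beside -0.31 without it, and that of all 48 members 0.18, with 33 above 0, beside 0.01 for all genes, of which 51.9% were above 0. Wnt9a, Wnt11, Wnt4 and Nkd1 were at -0.49, -0.41, -0.42 and -0.64, with unadjusted edgeR p between 0.112 and 0.229. They stayed below the trend, at smaller values. Dkk1 and Dkk2 were at 0.56 and 0.40. No member was lower in knockout at an unadjusted p under 0.05 (0 of 48, against 3.76% of all genes in that fit), and 2 were higher (4.17%, against 2.04%), where 5.79% of all genes were past it in either direction. These were Sfrp2 at 0.76 (SE 0.26, unadjusted p = 0.0128) and Fzd5 at 0.80 (SE 0.32, unadjusted p = 0.0245), each with an edgeR adjusted p of 0.795. Thus none of the 6 members with a small p without the correction kept it, and both with a small p after it are others.

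**Figure D5:**
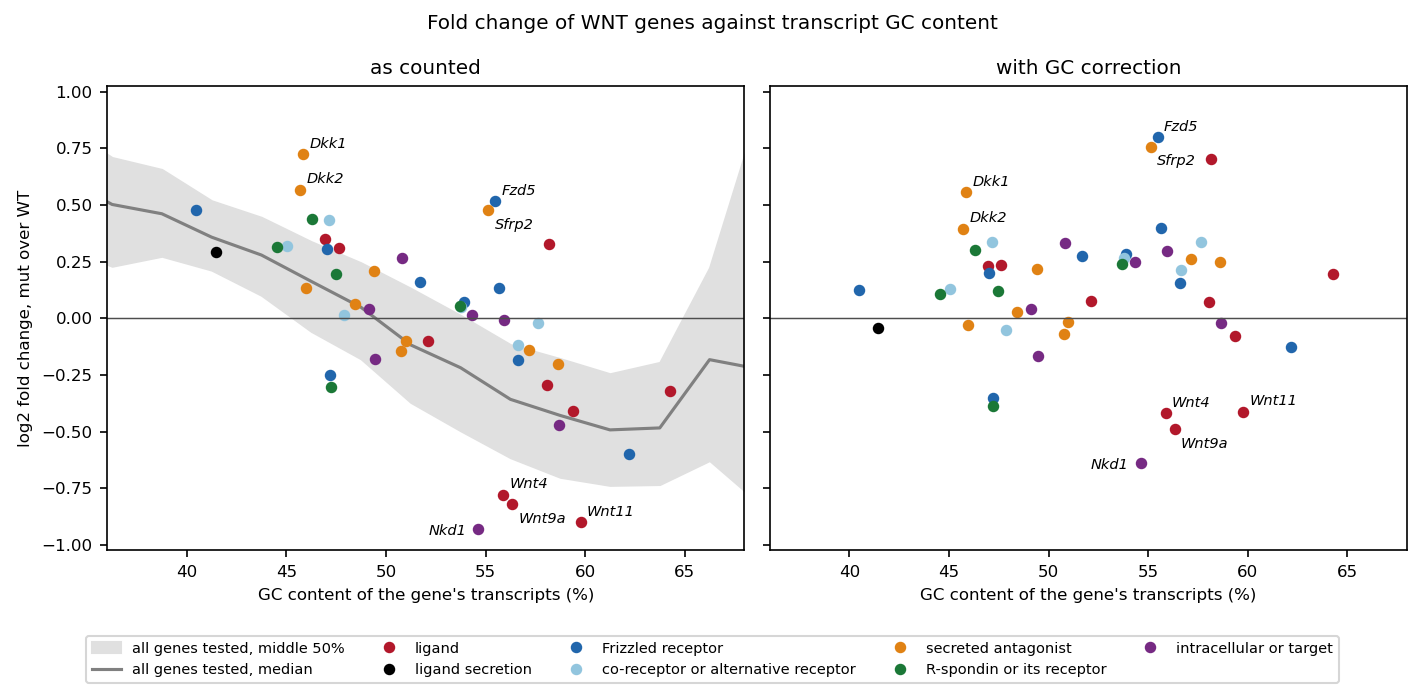
Log2 fold change of knockout over wild type (y axis) against the GC content of a gene's transcripts (x axis, percent) for the 48 tested WNT genes by role, as counted on the left and with the GC correction on the right. On the left the points fall along the grey median of all genes tested (band, middle 50%), with Wnt4, Wnt9a, Wnt11 and Nkd1 below it and Dkk1, Dkk2, Sfrp2 and Fzd5 above it, and on the right the slope is gone.

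The wider WNT list held 68 further genes, mainly the remaining ligands, the destruction complex, Dishevelled proteins, planar polarity genes and nuclear cofactors. Of these 67 had a symbol in the annotation, 49 were tested and 0 passed the edgeR threshold, 21 being above 0 and 28 below with a median of -0.12. At an unadjusted p under 0.05, 3 were lower and 1 was higher, where 7.12% of all genes were lower and 3.37% higher. Csnk1g2, a casein kinase that acts on LRP receptors, averaged 22.3 ± 4.86 CPM in Fbn1Scx-/- and 35.5 ± 9.05 CPM in WT (SD, n = 3 each), a log2 fold change of -0.67. Gsk3a, a kinase that marks β-catenin for breakdown, was at -0.88, and Bcl9l, a β-catenin cofactor, at -0.71. Csnk1g1 was at 0.70. The adjusted p was 0.459 for Csnk1g2, Gsk3a and Bcl9l and 0.460 for Csnk1g1 by edgeR. Groups did not overlap for 8 of the 49 genes, against 11.9% of all genes tested. Of these, 7 were lower in knockout, where 6.22% of all genes were, and 1 was higher, where 5.66% were. What lies behind these 7 was not tested. Without WT-795, Csnk1g2 (-0.88), Gsk3a (-1.21), Bcl9l (-0.91) and Csnk1e were lower in knockout and Csnk1g3 was higher past the edgeR threshold, 5 of 50 genes beside 9.08% of all genes. With the GC correction the median of the 49 genes was 0.06, and Gsk3a was at -0.41.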

How the data were processed

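Perichondrium of limb bones was profiled by RNA sequencing in 6 libraries at postnatal day 4, 3 from Fbn1Scx-/- mice and 3 from wild type. Per the labels' protocols, RNA came from a micro-scale column kit and cDNA was amplified with SMART-Seq v4 before transposase fragmentation, which does not mark strand. The authors deposited whole-number counts per Ensembl gene for 55536 genes, not normalized. The submitters' processing notes name GRCm38.p6 and DESeq2. Counts came from coordinate-sorted alignments, per the file headers. Counter, strand setting and handling of multiply matched reads: not given in the sources used here. A second file, deposited by the authors, lists log2 fold changes of mutant over wild type for 1643 genes, the base being judged from a DESeq2 fit.

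Columns were matched to libraries by title. Symbols, positions, merged exon lengths and the GC content of transcripts came from GENCODE M21, and each of the 53 symbols matched 1 gene identifier. The test was edgeR 4.0.16 (glmQLFit, glmQLFTest) in R 4.3.3, scaled by TMM, without covariates, after removal of low genes by filterByExpr with the groups given. It was two-sided, with Benjamini-Hochberg adjustment over the 15712 genes left by the filter, at a threshold of 0.05. Standard errors were obtained by dividing the estimate by the root of F, and 95% intervals used the total degrees of freedom of the fit. CPM is scaled by TMM, and RPKM is CPM per kilobase of merged exons. Total counts of 7209217 to 10316017 per library set the precision, and reads without molecular identifiers are not independent molecules. The procedure was tested on simulated data with changes larger than those of any member, so that test does not cover changes of the size seen here.

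The alternatives were RLE and upper-quartile scaling, no filter, a filter of 20 counts in 3 libraries, DESeq2 1.42.0, the shared number as a block, a GC correction, the block with that correction, each library left out, and both mutant libraries with Xist left out. The GC correction put each library's loess trend (span 0.5) of log2 CPM deviation on GC content into the offsets. Libraries with the same number did not deviate together (correlations of -0.18, 0.24 and -0.20 across 15712 genes), so the number was not taken as pairing.

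The genes, the lists and the naming rule were chosen with earlier results of these data known. The rule named members past the threshold, members averaging 1 or more in log2 CPM whose groups did not overlap, the 2 most abundant members of each role, a fixed set of 16 and the 4 genes of the wider WNT list with the smallest p. Other members are named after their values were seen.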

Additional observations from a re-analysis of the deposited data

How the results depend on the processing

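No WNT member was called under any of the 15 alternatives. The count of all genes called, 1 by edgeR, was 270 without the filter, 4 by DESeq2, 4 with the replicate block and GC correction together, 0 without both mutant libraries holding Xist, and 1 to 1517 with a library left out. Of the 270, 15 were not among the genes of the filtered fit, and the cause was not tested. Members with an unadjusted p under 0.05 numbered 6, and 3 with the replicate block (9.46% of all genes), 2 with the GC correction, 2 with both (4.22% of all genes), 2 without both mutant libraries holding Xist, and 3 to 11 with a library left out. Without WT-795, 5 of the other WNT pathway genes were called, and 0 in the other fits that left out a library. The median over the members was -0.045 to 0.14 with a library left out.

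Of the 27 genes of the naming rule, 12 changed sign under an alternative, among them Wnt5b and Wls, which were at -0.30 and 0.29. With the GC correction, Wnt5b was at 0.074, Wls was at -0.0441, Fzd2 was at 0.16, Ror2 was at 0.34, Ryk was at -0.0508, Sost was at 0.26, Notum was at 0.25 and Axin2 was at 0.30. With the replicate block and GC correction these were 0.0905, -0.0493, 0.15, 0.34, -0.0492, 0.34, 0.26 and 0.29, and Dkk3 was at 0.00413. With upper-quartile scaling Ryk and Tcf7 were at -0.0200 and -0.0206, and without the filter at -0.00398 and -0.0091. Tcf7 was at -0.000217 with the stricter filter, which removed Sost. Without both mutant libraries holding Xist, Fzd1 was at -0.0359, Notum at 0.0825 and Tcf7 at -0.30. With a library left out, the ranges were -0.0281 to 0.29 for Fzd1, -0.16 to 0.0614 for Ror2, -0.0476 to 0.0453 for Ryk, -0.26 to 0.00083 for Dkk3, -0.26 to 0.40 for Wif1, -0.47 to 0.0782 for Sost, -0.49 to 0.00176 for Notum, -0.34 to 0.23 for Axin2 and -0.11 to 0.15 for Tcf7. The other genes of the naming rule kept their sign under every alternative run, and genes named outside it were not followed through all of them. The replicate block alone reversed none of these 27. Of the 3 mutant libraries, 1 (mut-597) correlated best with the wild-type library of its own number, so the numbers are not shown to pair samples. Counts under 50 per library limit Axin2, Notum and Sost.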
